A study of Rattus norvegicus with 232 samples.

Results

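The brain levels of 8 genes known for their part in neurodegenerative disease, App, Bace1, Psen2, Apoe, Clu, Picalm, Bin1 and Mapt, were compared among inbred rat strains. The genes were chosen by name, with earlier results of these data known. They are 8 of the 20859 genes in the newest deposited table with RefSeq gene names. That table holds 214 libraries of 197 animals from 74 strains, with RNA of whole brain depleted of ribosomal RNA and sequenced with strand information. The study's methods describe sagittally cut brains of which 1 side was used. The rats were untreated and, per the series design, male and naive, and the labels give no age, while the study's methods describe young adult rats for the HXB/BXH and classic inbred strains. Strains are inbred, so animals of 1 strain are near-identical in genotype and no gene was altered by design in any group. The 74 strains belong to the Hybrid Rat Diversity Panel, a larger set of inbred strains. Of these, 30 strains with 88 animals are recombinant inbred strains of the HXB/BXH family, bred from the hypertensive strain SHR/OlaIpcv and the Brown Norway strain BN-Lx/Cub, and 19 strains with 43 animals are recombinant inbred strains of the FXLE/LEXF family, bred from F344/Stm and LE/Stm. The other 25 strains with 66 animals are classic inbred strains, the progenitors included. In 54 strains there were 3 animals, in 15 there were 2 and in 5 there was 1.

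The amyloid precursor protein App is cut first by the beta-secretase Bace1 and then by gamma-secretase, whose catalytic subunit can be the product of Psen2. The cuts release amyloid beta, the peptide of the plaques of Alzheimer disease. Apoe and Clu (clusterin) are secreted carriers of lipid that bind this peptide and come largely from astrocytes, Picalm and Bin1 act on clathrin-coated or curved membranes in endocytosis, and Mapt encodes tau, the microtubule protein of neurofibrillary tangles.

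Levels are on the log2 scale of the deposited values, on which a difference of 1 is a doubling for a well-expressed gene. They are not corrected for gene length, so that each gene is compared with itself across strains and not with the others. The tables hold no counts, the depth of the libraries is unknown, and the number of animals limits the precision. Libraries of 1 strain that carry the same replicate number were read as repeats of 1 animal and averaged. Library medians ran from 8.18 to 8.42. Of 7 liver genes such as Alb and Apoa1, the mean was 18.85 in the LE/Stm animal, 14.33 in BXH6/Cub replicate 3 and 13.17 in HXB10/Ipcv replicate 1, beside a median of 8.02 over the 197 animals. Without these 3 animals, a setting chosen after seeing the data, the call of each of the 8 genes was as reported below in the comparisons among strains. Earlier results of these data also set apart the 3 LEW/Crl animals as doubtful against their labels, and leaving them out together with LE/Stm changed no call of the 8 genes in the comparisons among strains.

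All 8 genes were well expressed. Over the 69 strains with at least 2 animals, the distance from the lowest to the highest strain mean was 0.31 for Bace1, 0.34 for App, 0.34 for Mapt, 0.41 for Clu, 0.48 for Bin1, 0.54 for Psen2, 0.58 for Picalm and 0.84 for Apoe on the log2 scale. As a ratio this was 1.24-fold for Bace1 and 1.8-fold for Apoe. After adjustment of strain means for batch the distances were wider, 0.39 for Bace1, 0.57 for App, 0.66 for Mapt, 0.67 for Clu, 0.86 for Bin1, 0.87 for Psen2, 0.84 for Picalm and 1.73 for Apoe. For 6 of the 8, all but Bace1 and Picalm, this was over 1.5 times the unadjusted distance. The shifts estimated for the batches themselves spanned more than the unadjusted strain means in all genes but Bace1. For Apoe the SD of strain means went from 0.16 to 0.54 in the classic inbred strains. It went from 0.18 to 0.24 in HXB/BXH and from 0.22 to 0.34 in FXLE/LEXF. Whether the wider distances are differences between strains or come from the estimated shifts was not tested. Of the 8 genes, Bace1 and Mapt differed between strains at a false discovery rate of 5%, with limma's moderated F-test adjusted over all 20859 genes. The other 6 did not pass. In the same test 37.3% of all genes were called, so 2 of 8 is not above the share of the whole table. The share of the variation that lay between strains, the strain R2, was 0.561 for Bace1 and 0.513 for Mapt. It lay between 0.387 for Psen2 and 0.428 for Picalm in the other 6, below the median of 0.451 over all genes. With few animals per strain, R2 is high even where strains do not differ. The between-strain component of variance, which allows for this, was 0.302 for Bace1 and 0.226 for Mapt. For the other 6 it lay between 0.0227 for Psen2 and 0.0887 for Picalm, beside a median of 0.126 over all genes.

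**Figure D1:**
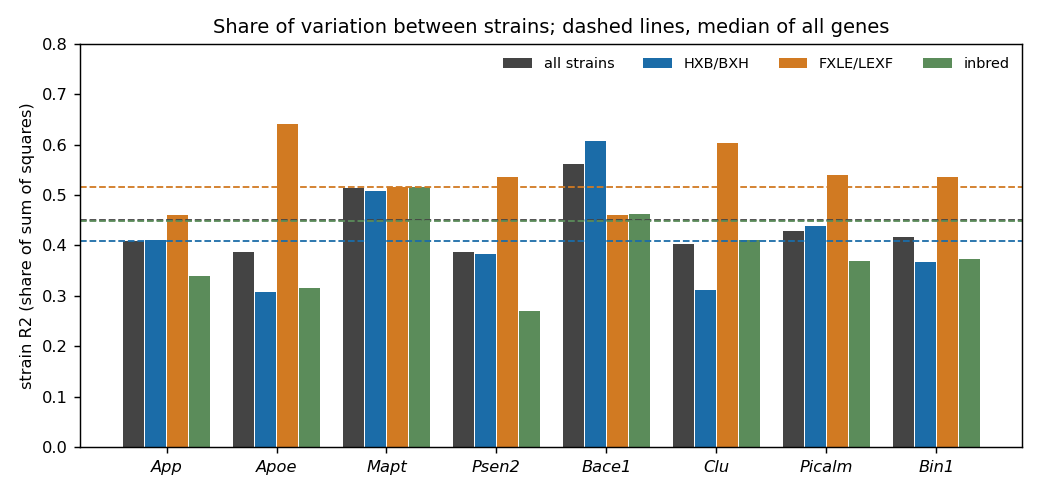
Strain R2 (between-strain over total sum of squares, no unit) of the 8 genes over all strains and within each panel, with a dashed line at the median of all genes for each set. Bace1 and Mapt stand above the dashed line over all strains and, with Picalm and barely App, in the HXB/BXH family, and the tall FXLE/LEXF bars stand beside a higher median of 0.516 in a family with fewer animals per strain.

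Calls differed with and without a term for batch. Batch was taken from the batch tag of the labels, which is also the batch in the column names of 213 of the 214 libraries, while the titles of 26 samples in the series give another number, and the titles' batches were not tried. The libraries fell into 17 batches, no batch held animals of both recombinant families, and the batches cannot be fully told apart from the panels. Per the study's methods, brains of the HXB/BXH strains and their progenitors were shipped from Prague in liquid nitrogen. Its other classic inbred strains came from vendors and their brains were kept in RNAlater. Later batches had more washes against ribosomal RNA. The part of source, storage and washes was not tested. When batch entered the limma fit over libraries as a term, 7 of the 8 genes were called over all strains and App was not. The share of all genes called rose to 70.3% in that fit, so that 7 of 8 is again near the share of the table. In a fit with batch and 1 library per animal, also chosen after seeing the data, 6 of the 8 were called and App and Psen2 were not, beside 55.6% of all genes. In the older v5 table of Ensembl genes, with 45 strains, 7 of the 8 passed beside 63.6% of all genes, and App again did not. In the v6 table of Ensembl genes, with 58 strains, 2 of the 8 passed, again Bace1 and Mapt, beside 32.3% of all genes. Of the 8 genes, only Bace1 and Mapt were called in both the fit without and the fits with the batch term. In every setting tried App missed the threshold, with adjusted p-values of limma from 0.177 to 0.598.

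Bace1 encodes the protease that makes the first cut in App on the way to amyloid beta. Its annotated span is chromosome 8, bases 46141886 to 46170868 on the forward strand, in the deposited annotation, whose genome build is not given in the sources used here. Over the 197 animals its level ran from 11.74 through a median of 11.96 to 12.22. The adjusted p-value of limma over all strains was 0.00312, and over 13 alternatives it ran from 0.000509 to 0.345, with 11 of them called. The 2 that lost the call left out replicate 1 or replicate 2 of every strain. This lowers most strains to 2 animals and, as replicate numbers in HXB/BXH went with batch, changes the batches behind their means. Leaving out replicate 3, which does the same, kept the call with an adjusted p-value of limma of 0.0476. The SD between animals of 1 strain was 0.0688, which is the smallest of the 8, and the SD of strain means was 0.061.

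The highest Bace1 mean was that of HXB13/Ipcv at 12.16, with animals at 12.12, 12.18 and 12.18. Next in order came BXH2/Cub at 12.09, with animals at 12.05, 12.11 and 12.11, all below those of HXB13/Ipcv. The lowest mean was that of LEXF6B/Stm at 11.85, with animals at 11.81 and 11.89, followed by BN-Lx/Cub, also at 11.85. HXB13/Ipcv also had the highest mean of endothelium markers (10.95) among the 69 strains, and for meninges markers (10.20) it lay above 67 of the others; their part in the Bace1 level was not tested. All animals of HXB13/Ipcv lay above all animals of 66 of the other 68 strains. Of the 68 neighbouring pairs in the order of strains, 1 pair did not overlap in its animals, so the order in the middle cannot be read strain by strain.

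Within the HXB/BXH family, Bace1 had the clearest strain effect of the 8 genes. Strain means ran from 11.87 in HXB23/Ipcv through a median of 11.99 to 12.16 in HXB13/Ipcv. The strain R2 was 0.607, beside a median of 0.409 over all genes, and the adjusted p-value of limma was 0.000482. The between-strain component took 0.417 of the variance, beside a median of 0.117 over all genes. The batch term gave an adjusted p-value of limma of 0.00183, and over 13 alternatives it ran from 0.00039 to 0.158, with 10 called. It lost the call in the v5 table and without replicate 1 or replicate 2. In this family 26.5% of all genes were called, and 36.4% with batch as a term.

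Mapt, on chromosome 10 at bases 89138604 to 89258379 on the forward strand, was the other called gene. Its level over the animals ran from 13.39 through a median of 13.83 to 14.12. The adjusted p-value of limma over all strains was 0.0128, and over 13 alternatives it ran from 0.000952 to 0.227, with 10 called. Leaving out replicate 1, 2 or 3 of every strain ended the call each time. The highest means were those of SR/JrHsd, with animals at 13.89, 13.97 and 14.12, and FXLE15/Stm, with animals at 13.96 and 14.03. The lowest were those of HXB25/Ipcv, with animals at 13.48, 13.72 and 13.75, and HXB23/Ipcv, with animals at 13.56, 13.63 and 13.80. The highest and the lowest strain did not overlap, but each of the 68 neighbouring pairs did. The mean of neuron markers was 13.96 in SR/JrHsd, above 66 of the other 68 strains, and 13.75 in HXB25/Ipcv, above 2 of them, and SR/JrHsd had the lowest mean of olfactory bulb markers (5.73). The part of these in the Mapt level was not tested.

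In the HXB/BXH family the Mapt means spread from 13.65 to 13.96 with a strain R2 of 0.508 and an adjusted p-value of limma of 0.0161. It was 0.00878 when batch was a term, and over 13 alternatives it ran from 0.00238 to 0.17, with 9 called. The 4 that lost it were the v5 table and the fits without replicate 1, 2 or 3. Among the classic inbred strains none of the 8 genes passed, and the lowest unadjusted p-value of limma was that of Mapt, 0.0333. The batch term gave 6 of 8 there, all but App and Bace1, and batch with 1 library per animal gave 3, Mapt, Picalm and Bin1, beside 32.6% of all genes. In this panel the adjusted p-value of limma for Mapt was 0.106, with a strain R2 of 0.516, beside 23.2% of all genes called. It was 0.00383 when batch was a term, beside 62.1% of all genes, and over 13 alternatives it ran from 0.00383 to 0.795.

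**Figure D2:**
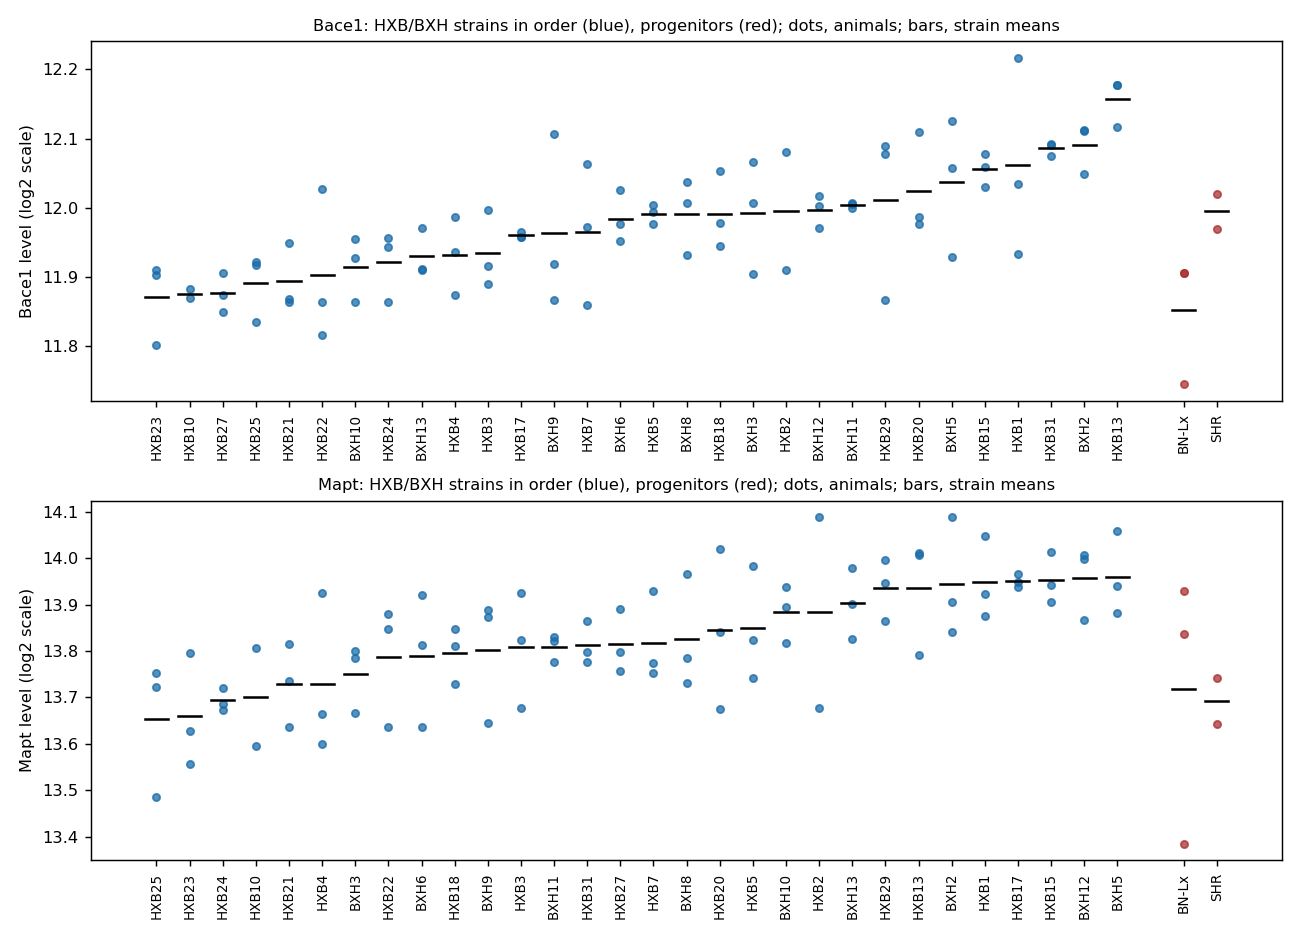
Level of Bace1 (top) and Mapt (bottom) on the log2 scale in each animal of the 30 HXB/BXH strains, ordered by strain mean, and in the progenitors; dots are animals and bars are strain means. Bace1 means climb from 11.87 to 12.16 and Mapt means from 13.65 to 13.96 in small steps, and animals of neighbouring strains overlap except those of HXB13/Ipcv and BXH2/Cub for Bace1.

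Of the extreme strains given here and below, which are those without a batch term, most changed after adjustment of strain means for batch. The adjusted means of Apoe, Mapt, Psen2 and Bin1 were highest and that of Picalm lowest in SR/JrHsd, and those of App, Mapt and Bin1 were lowest and that of Picalm highest in F344/Stm. Batch 13, with 5 libraries, held all animals of F344/Stm and was joined to other batches only by a library of SHR/OlaIpcv replicate 1. Among the 12 libraries of that animal it was the highest for App (15.47), Mapt (14.03) and Bin1 (12.85). Its part in the adjusted means of F344/Stm was not tested. SR/JrHsd and SS/JrHsd had their animals in batches 8 and 11. The batch 11 library of SHR/OlaIpcv replicate 1 was the lowest of the 12 for Apoe (14.23), Psen2 (8.55), Clu (14.30) and Bin1 (12.09). For Picalm it was the highest (13.11). The Apoe means of F344/NHsd and LEW/SsNHsd, also of batch 11, went from 15.50 to 16.37 and from 15.59 to 16.46 with the adjustment. The part of batch 11 in the adjusted means was not tested. The highest strain stayed the same for Bace1 (HXB13/Ipcv), Clu (SS/JrHsd) and Mapt (SR/JrHsd), and the lowest for Apoe (BN-Lx/Cub).

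The remaining genes of amyloid processing were App and Psen2. App, on chromosome 11 at bases 24019774 to 24236584 on the reverse strand, ran from 14.86 to 15.55 over the animals with a median of 15.25. The adjusted p-value of limma was 0.313 over all strains, and the SD between animals of 1 strain, 0.129, exceeded the SD of strain means, 0.0852. Its highest strain, LEXF5/Stm, had animals at 15.30 and 15.55 and its lowest, WKY/NCrl, had animals at 14.98, 15.13 and 15.15. Psen2, on chromosome 13 at bases 91967486 to 91993240 on the reverse strand, ran from 8.60 to 9.57 with a median of 9.12. For Psen2 the adjusted p-value of limma was 0.427 and became 0.0136 with batch as a term. Over its 13 alternatives it ran from 0.0136 to 0.894. Psen2 was highest in LEXF5/Stm, with animals at 9.28 and 9.57, and lowest in BN-Lx/Cub, with animals at 8.60, 8.96 and 9.10. LEXF5/Stm, the highest strain for App and Psen2, also had the highest mean of neuron markers (14.00) and the lowest of astrocyte markers (13.44) among the 69 strains. WKY/NCrl, the lowest for App, had the highest mean of microglia markers (9.82), and its neuron markers (13.77) lay above 7 of the other strains. The part of these markers was not tested.

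Of the lipid carriers, Apoe had the wider range. It lies on chromosome 1 at bases 79353924 to 79357852 on the reverse strand, and its level ran from 14.81 through a median of 15.52 to 16.14 over the animals. The SD between animals of 1 strain was 0.296, more than the SD of strain means, 0.189. The adjusted p-value of limma was 0.391 and became 0.000503 with batch as a term, in a range over 13 alternatives from 0.000503 to 0.779. The highest strain was HXB2/Ipcv, with animals at 15.95 and 16.03, followed by LEXF1C/Stm with animals at 15.88 and 16.08. The lowest was BN-Lx/Cub, with animals at 14.83, 15.08 and 15.53, followed by LEXF10A/Stm with animals at 15.07, 15.08 and 15.33. All animals of HXB2/Ipcv lay above all animals of 58 strains.

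Clu lies on chromosome 15 at bases 40161068 to 40200315 on the forward strand and ran from 14.34 through 14.61 to 14.99. For Clu the adjusted p-value of limma was 0.346, became 0.0127 with batch as a term and ran from 0.00258 to 0.692 over 13 alternatives. Its highest strain was SS/JrHsd, the Dahl salt-sensitive rat, with animals at 14.64, 14.79 and 14.99. The lowest was HXB10/Ipcv, with animals at 14.39 and 14.41, which lay below every animal of 61 strains. One of these HXB10/Ipcv animals, that at 14.39, is among the 3 with raised liver genes. HXB10/Ipcv also had the lowest strain mean of neuron (13.69), microglia (9.26) and meninges (9.50) markers and the highest of liver genes (10.49) among the 69 strains. Their part in the Clu level was not tested.

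Picalm and Bin1, the genes of membrane uptake, ran opposite to each other across strains (r = -0.52 over 69 strain means), while neither passed the test. Picalm lies on chromosome 1 at bases 144056264 to 144211143 on the forward strand and ran from 12.25 through 12.82 to 13.45. Its adjusted p-value of limma was 0.192, became 0.00395 with batch as a term and ran from 0.00395 to 0.845 over 13 alternatives. Its highest strain was BN-Lx/Cub, with animals at 12.86, 13.00 and 13.45, and its lowest was HXB1/Ipcv, with animals at 12.41, 12.46 and 12.69. Bin1 lies on chromosome 18 at bases 24009731 to 24071081 on the forward strand and ran from 12.07 through 12.62 to 13.00. For Bin1 the adjusted p-value of limma was 0.248, became 0.000731 with batch as a term and ran from 0.000731 to 0.577 over 13 alternatives. BN-Lx/Cub was its lowest strain, with animals at 12.07, 12.45 and 12.70, and LEXF1C/Stm its highest, with animals at 12.79 and 12.98. In LEXF1C/Stm the means of neuron markers (13.97) and cerebellum markers (11.17) each lay above 67 of the other strains. The mean of neuron markers in BN-Lx/Cub (13.75) lay above 3, and the part of these markers was not tested. In the HXB/BXH family with batch as a term, Bin1 was called with an adjusted p-value of limma of 0.0488. It was 0.397 without the batch term and ran from 0.023 to 0.697 over 13 alternatives. With batch and 1 library per animal 4 of the 8 were called in this family, Bace1, Mapt, Bin1 and Apoe, beside 39.0% of all genes. For Apoe that adjusted p-value of limma was 0.0437, in a range over 13 alternatives from 0.0437 to 0.845.

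BN-Lx/Cub was at or next to an end of the strain order for 5 of the genes, and 1 of its animals stood at the edge of all animals. Replicate 1 had the lowest level of all 197 animals for Mapt (13.39), Psen2 (8.60), Bace1 (11.74) and Bin1 (12.07) and the highest for Picalm (13.45). The mean of replicates 2 and 3 of the strain was above 9 of the other 68 strains for Apoe, 10 for Psen2, 14 for Bace1, 19 for Bin1 and 58 for Picalm, so the mean of these 2 animals stayed towards the same end. For Mapt, where the strain was not at an end, their mean was 13.88, above 48 of 68 strains. A BN-Lx/Cub animal also had the lowest mean of neuron markers of all animals, 13.57 beside a median of 13.85, and the part of this in the levels was not tested. Replicates 1 and 2 were both in batch 3. For Bin1 replicate 2 was at 12.70, above 133 of the 197 animals. It was above 99 for Apoe, 91 for Psen2, 112 for Picalm and 50 for Bace1.

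The repeat libraries give the size of the error of 1 measurement, batch included, as each library of an animal was in another batch. SHR/OlaIpcv replicate 1 was present in 12 libraries of 12 batches and replicate 4 in 6 libraries of 6 batches. Apoe ran from 14.23 through a median of 15.33 to 15.63 in the 12 libraries, a distance of 1.41, while the 69 strain means spanned 0.84. Without the library of batch 11 the other 11 ran from 14.80 to 15.63, a distance of 0.83, about that of the strain means. A strain mean is taken over 2 or 3 animals and so varies less than a library does. Psen2 ran from 8.55 to 9.40, Bin1 from 12.09 to 12.85, Picalm from 12.44 to 13.11 and Mapt from 13.46 to 14.03 in the same libraries. The narrowest was Clu, from 14.30 to 14.61. Bace1 ran from 11.84 to 12.23, a distance of 0.39. Without the library of batch 11 the distance was 0.28 for Bace1 and 0.42 for Bin1, below the 0.31 and 0.48 of their strain means, and for Picalm it was 0.50 beside 0.58, where with that library all 3 were above.

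Over the 12 libraries the SD was 0.414 for Apoe and 0.112 for Bace1. It exceeded the SD between animals of 1 strain in 6 of the 8 genes, Apoe, Mapt, Psen2, Bace1, Picalm and Bin1. Without the library of batch 11, left out after seeing the data, the SD was 0.282 for Apoe and 0.147 for Picalm, and 4 of the 8 remained above, Mapt, Psen2, Bace1 and Bin1. Over the 6 libraries of replicate 4 it did so in 2, App and Bace1. The median SD over all genes was 0.162 for the 12 libraries, 0.142 without that of batch 11, 0.134 for the 6 libraries of replicate 4 and 0.162 between animals of 1 strain. The library of batch 11 was the lowest of the 12 for App (15.06), Apoe (14.23), Psen2 (8.55), Clu (14.30) and Bin1 (12.09) and the highest for Picalm (13.11) and Bace1 (12.23).

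**Figure D3:**
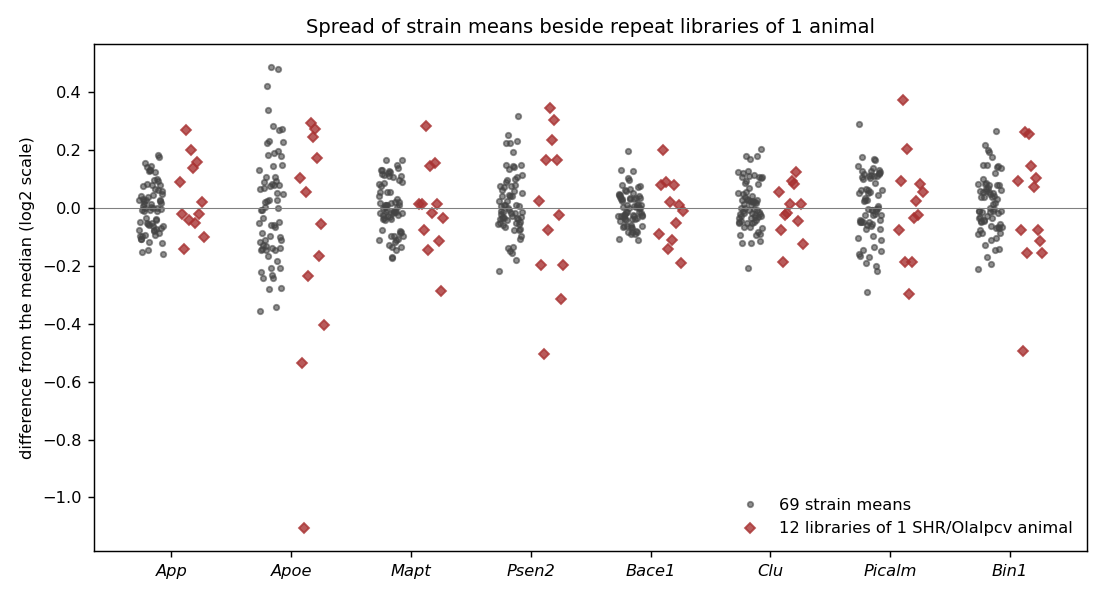
Strain means of the 69 strains with at least 2 animals (grey) and the 12 libraries of SHR/OlaIpcv replicate 1 (red diamonds), each as the difference from its own median on the log2 scale. For Apoe the libraries of 1 animal span 1.41, or 0.83 without the lowest, and the strain means 0.84; for Bace1 the spans are 0.39, or 0.28 without the highest, and 0.31.

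The levels of the 8 genes were correlated. Over the 69 strain means Apoe and Bin1 had a Pearson r of 0.75, Apoe and Psen2 of 0.68, Mapt and Bin1 of 0.66 and Clu and Bin1 of 0.64. Picalm ran against them, with r of -0.69 with Psen2, -0.52 with Bin1 and -0.48 with Apoe. Bace1 had r between -0.03 and 0.24 with each of the others except Mapt, with which it was 0.43. With batch-adjusted strain means r of Bace1 was -0.50 with Apoe, -0.46 with Clu, -0.39 with Bin1, -0.35 with Psen2, -0.23 with App, 0.13 with Mapt and 0.48 with Picalm, and r of Picalm was -0.85 with Psen2, -0.85 with Bin1 and -0.82 with Apoe. These values describe strains that share batches and processing.

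The same pairs were correlated among libraries of 1 animal. The 12 libraries of SHR/OlaIpcv replicate 1 share 1 strain and 1 replicate number and were read as 1 animal. Over them r was 0.90 for Apoe and Bin1, 0.89 for Apoe and Psen2, 0.64 for Mapt and Bin1 and 0.73 for Clu and Bin1. It was -0.94 for Picalm and Bin1 and -0.85 for Picalm and Psen2. Of the 28 pairs, 24 had the same sign of r over strains as over these libraries, and 26 without the library of batch 11, where r was 0.78 for Apoe and Bin1 and -0.89 for Picalm and Bin1. Among 192 animals taken as deviations from their strain mean, 27 of 28 pairs had the same sign as over strains. The part of library preparation or batch in the strain values was not tested.

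**Figure D4:**
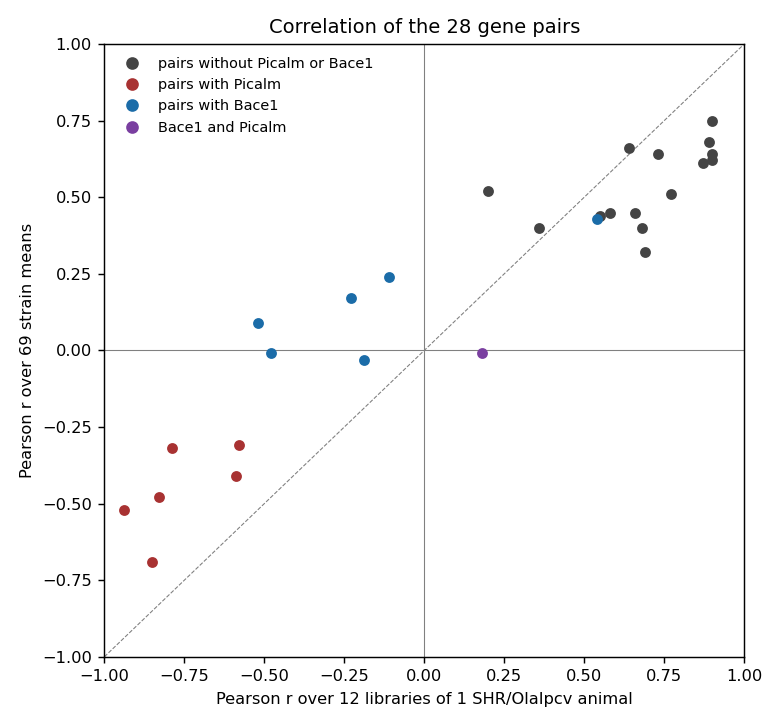
Pearson r of each of the 28 gene pairs over 12 libraries of 1 SHR/OlaIpcv animal (x axis) and over 69 strain means (y axis); the dashed line marks equality and colours mark pairs with Picalm, Bace1 or both. Pairs among the other genes lie at the upper right, pairs with Picalm other than that with Bace1 lie at the lower left, and 24 of the 28 pairs have the same sign on both axes.

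Many genes outside the 8 had a pattern like theirs. Picalm had 573 genes with r above 0.8 over the strains, led by Uba6, Exoc5 and Npm1, each at 0.93. Psen2 had 129, led by Apbb1 (0.89), which encodes an adaptor that binds the cytoplasmic tail of App, then Dhx30 (0.88) and Ilvbl (0.87). Apoe had 123, led by Map2k2 (0.90), Csnk1g2 (0.89) and Frs3 (0.88), and Bin1 had 91, led by Hip1r (0.90), a gene of clathrin-mediated uptake, Evi5l (0.89) and Mapk8ip1 (0.88). App had 4, led by Klc1 (0.87), a kinesin light chain, Raly (0.85) and Psmc3 (0.82). Mapt was followed by Gabbr1, Map7d1 and Iqsec1, each at 0.80, and Clu by Pbxip1, Eif3g and Phgdh, each at 0.70. Bace1 had no gene above 0.8, and its nearest were Slc22a23 (0.66), Mfsd6 (0.62) and Cables2 (0.61). All of these lie on other chromosomes than the gene they follow.

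Within the HXB/BXH strains the genes nearest to Bace1 were Slc22a23 (r = 0.85), Gpr17 (0.84), a receptor of oligodendrocyte precursors, and Tpp1 (0.84), a lysosomal peptidase. Those nearest to Mapt were Ppp1r10 (0.92), Arhgap44 (0.90), on chromosome 10 like Mapt, and Galns (0.90). These are the highest of 14299 genes compared over 30 strains, and 215 genes had r above 0.8 with Mapt and 7 with Bace1.

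Markers of 12 cell types, tissues and brain regions were set beside the 8 genes. The mean of 7 neuron markers such as Snap25 and Rbfox3 had r of 0.75 with Mapt, 0.70 with Bin1 and 0.62 with App over the 69 strains, and of -0.30 with Picalm. Neuron marker means were between 13.69 and 14.00 over strains, and 2 of the 7 genes were called over all strains. The mean of 7 astrocyte markers had r of 0.40 with Clu and 0.09 with Apoe. The mean of 7 microglia markers, between 9.26 and 9.82 over strains with 7 of 7 called, had r of 0.44 with Apoe and 0.43 with Clu. For Bace1 the highest marker r was 0.42, with 7 hindbrain genes, whose mean lay between 2.88 and 3.71 over strains. With batch-adjusted strain means the r of microglia markers was 0.81 with Apoe, 0.80 with Clu and -0.60 with Bace1, that of neuron markers was 0.76 with Mapt, and that of liver genes was -0.70 with Apoe. Other lists moved with the adjustment too. For Apoe r went from 0.19 to 0.60 with choroid plexus, from 0.19 to 0.66 with meninges and from 0.00 to -0.62 with cerebellum markers. With neuron markers it went from 0.51 to 0.47 and with astrocyte markers from 0.09 to 0.14. Their part in the levels of the 8 genes was not tested, and in bulk tissue fewer cells of a type and less RNA per cell cannot be told apart.

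Progenitors were compared to see whether the parents of each recombinant family differed in these genes. BN-Lx/Cub (3 animals) and SHR/OlaIpcv (2 animals) did not differ past the threshold in any of the 8 genes in the limma contrast, while 4.51% of all genes did. The lowest unadjusted p-values of this contrast among the 8 were 0.0272 for Picalm and 0.0331 for Bace1. The share of all genes with such values is not given here. Bace1 was at 11.74, 11.90 and 11.91 in BN-Lx/Cub and at 11.97 and 12.02 in SHR/OlaIpcv. All SHR/OlaIpcv values were the higher, but they are means of 12 and 6 libraries, and of these 18 libraries, which ran from 11.79 to 12.23, 3 lay below the middle BN-Lx/Cub animal. The animals gave a difference, BN-Lx/Cub minus SHR/OlaIpcv, of -0.14 (SE 0.0663) and an adjusted p-value of limma of 0.212. It was -0.17 with batch as a term, with an adjusted p-value of limma of 0.0384, beside 16.5% of all genes called. That fit was over libraries, of which the 2 SHR/OlaIpcv animals supply 18. Of 18 alternatives this was the only one that called Bace1, and batch with 1 library per animal did not. Without BN-Lx/Cub replicate 1 the difference was -0.09, and in the v5 table it was -0.003. Picalm was at 12.86, 13.00 and 13.45 in BN-Lx/Cub and at 12.74 and 12.80 in SHR/OlaIpcv, a difference of 0.33 (SE 0.1495) with an adjusted p-value of limma of 0.191, in a range over 18 alternatives from 0.0503 to 1. Without BN-Lx/Cub replicate 1 the Picalm difference was 0.16, and it was 0.06 in the v5 table. Over the alternatives the difference ran from 0.06 to 0.70.

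In the other 6 genes the difference between these progenitors was smaller beside its SE. Psen2 differed by -0.19 (SE 0.149), Bin1 by -0.16 (SE 0.133), App by -0.09 (SE 0.118), Apoe by -0.08 (SE 0.267), Clu by 0.04 (SE 0.118) and Mapt by 0.03 (SE 0.101). Without BN-Lx/Cub replicate 1 the difference was -0.04 for Psen2 and 0.01 for Bin1. Over 18 alternatives that of Psen2 ran from -0.38 to 0.09 and that of Bin1 from -0.52 to 0.12. Mapt was at 13.39, 13.84 and 13.93 in BN-Lx/Cub and at 13.64 and 13.74 in SHR/OlaIpcv, and 26 of the 30 HXB/BXH means lay above both progenitor means. For Apoe 29 of 30 did, for Bin1 24 and for Clu 23. Bace1 had 19 strains between the progenitor means and 11 above, and Picalm had 19 between and 11 below. Without BN-Lx/Cub replicate 1, left out after seeing the data, the number above both progenitor means was 10 of 30 for Mapt, 6 for Clu, 24 for Apoe and 22 for Bin1. Bace1 then had 11 above, 13 between and 6 below, and Picalm 5 above, 14 between and 11 below.

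F344/Stm (3 animals) and LE/Stm (1 animal) bound the FXLE/LEXF family. The lone LE/Stm animal is the one with the liver genes at 18.85, and its spread is taken from the other strains, so that this contrast rests on 1 doubtful library. The liver genes were also above the median of 8.02 in F344/Stm replicate 2 (10.61) and replicate 3 (10.47). None of the 8 genes passed, beside 0.796% of all genes and 0.896% with batch as a term, and none had an unadjusted p below 0.05. Over 13 alternatives none of the 8 was called. Apoe, which liver also makes in quantity, was at 15.22, 15.36 and 15.58 in F344/Stm and at 15.81 in LE/Stm, a difference, F344/Stm minus LE/Stm, of -0.43 (SE 0.337) with an adjusted p-value of limma of 0.517. Clu was at 14.54, 14.62 and 14.69 in F344/Stm and at 14.80 in LE/Stm, a difference of -0.18 (SE 0.149), and the part of liver RNA was not tested.

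**Figure D5:**
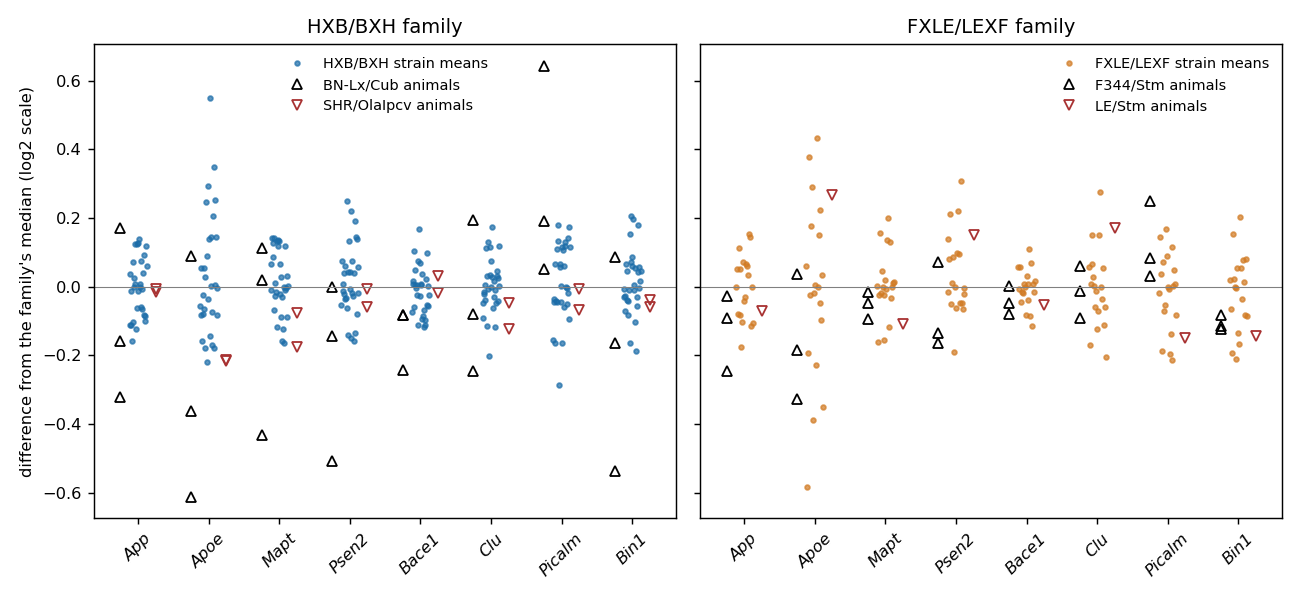
Strain means of the HXB/BXH (left, blue) and FXLE/LEXF (right, orange) families and single animals of their progenitors, as the difference from the family's median on the log2 scale. For Apoe 29 of 30 HXB/BXH means lie above both progenitor means, and the LE/Stm triangle stands for a single animal.

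Among the FXLE/LEXF strains none of the 8 genes passed in the limma F-test, beside 7.47% of all genes, and none had an unadjusted p below 0.05. Adding batch gave again 0 of 8, beside 11.7%. Apoe had the highest R2 of the 8 in this family, 0.64, with strain means from 15.16 in LEXF10A/Stm to 15.98 in LEXF1C/Stm among strains with at least 2 animals and an adjusted p-value of limma of 0.295. The between-strain component took 0.379 of its variance, beside a median of 0.157 over all genes. Only 8 of the 19 strains had 3 animals and 3 had 1, so fewer animals stand behind each mean than in HXB/BXH. Over 12 alternatives the lowest adjusted p-value of limma for Apoe in this family was 0.0752 and the highest 0.712.

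Segregation into classes of strain means was sought by fitting 1, 2 or 3 normal clusters of equal variance to the strain means of each family. In HXB/BXH all 8 genes were best described by 1 cluster, while 11.7% of all genes had more. In FXLE/LEXF 7 of the 8 had 1 cluster and Mapt had 3, beside 14.7% of all genes with more than 1. Mapt kept 3 clusters when the Bayesian information criterion had to improve by more than 6 (its gain was 8.23), a setting that left 2.08% of all genes with more than 1. The Mapt clusters held 3 strains from 13.68 to 13.72, 12 strains from 13.80 to 13.88 and 4 strains from 13.97 to 14.04, and each held 1 strain with a single animal, FXLE13/Stm, LEXF9/Stm and LEXF2B/Stm. In this family the SD between animals of 1 strain was 0.11 for Mapt. The limma F-test gave Mapt an adjusted p-value of 0.351 there, and its strain R2 of 0.516 was at the median of all genes, 0.516. After adjustment of strain means for batch Mapt had 1 cluster there, and the same adjustment gave 3 clusters for Apoe and Psen2 in HXB/BXH and 2 for Psen2 in FXLE/LEXF, beside 11.6% and 19.8% of all genes with more than 1. No gene of the 8 had more than 1 cluster in either family both with and without the adjustment.

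Transcripts were read from the deposited table of 45991 RefSeq transcripts, in which 34 belonged to the 8 genes and 2, both of Mapt, differed between strains in the limma F-test, beside 13.9% of all transcripts. With batch as a term 13 of the 34 were called, beside 31.5% of all. The split of reads between isoforms is an estimate. The Mapt transcript XM_008768278.3, the most abundant of the 6 in the table with a mean of 12.77, had a strain R2 of 0.603 and an adjusted p-value of limma of 0.000143. It was highest in BDIX/NemOdaMcwi, with animals at 13.05 and 13.30, and lowest in HXB23/Ipcv, with animals at 12.20, 12.34 and 12.55. Its strain means followed those of the whole gene with r of 0.83.

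The transcript NM_017212.2 of Mapt, singled out after its values were seen, went the other way in BDIX/NemOdaMcwi, where it had its lowest mean of 10.88 against a median of 12.05, and it was not called (adjusted p of limma 0.374). The other called transcript, XM_008768279.3, with a mean of 8.35, had an adjusted p-value of limma of 0.0279 and an SD between animals of 1 strain of 1.97. In ACI/SegHsd its animals were at 2.56, 3.96 and 7.74 and in HXB1/Ipcv at 9.82, 10.88 and 11.02. Leaving out a replicate ended its call each time, over 4 alternatives from 0.00154 to 0.671, and for XM_008768278.3 they ran from 1.94e-06 to 0.138 with 2 of 4 called. Of the other genes the most abundant transcripts were XM_006248011.4 for App, NM_138828.3 for Apoe, XM_006250408.4 for Psen2, NM_019204.2 for Bace1, XM_006252094.4 for Clu, XM_006229676.4 for Picalm and NM_053959.1 for Bin1, with adjusted p-values of limma from 0.271 to 0.706. The Bace1 transcript, the only one annotated for this gene, had a mean of 9.42, an R2 of 0.437 and r of 0.38 with the whole gene, whose mean was 11.96. The strain effect called for the whole gene was thus not called for its transcript (adjusted p of limma 0.271), while with batch as a term it was (0.007). The only Clu transcript in the table had r of 0.99 with its gene.

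Other genes of the same pathways give the setting. In 8 lists with 106 genes beside the 8 described, 40 (37.7%) were called over all strains in the limma F-test, beside 37.3% of all genes, with a median R2 of 0.46 beside 0.451. The counts of each list are to be read against that share, and the lists too were chosen with earlier results of these data known. Genes of amyloid precursor processing were called in 6 of 14, led by Aph1b, a gamma-secretase subunit, with an R2 of 0.751 and strain means from 8.12 in MWF/Hsd to 8.98 in HXB4/Ipcv, and Bace2 with an R2 of 0.606. Of lipid carriage and amyloid clearance 7 of 13 were called, led by Abca1, the transporter that loads lipid onto Apoe, with an R2 of 0.788 and strain means from 11.47 to 11.93, and Plin2 with 0.626. Of endocytosis and membrane trafficking 4 of 15 were called, led by Ephb4 (0.614) and Amph (0.524), the neuronal relative of Bin1. With batch as a term these counts were 11, 12 and 12. In the FXLE/LEXF family 6 of the 106 genes (5.7%) passed, Abca1, Aph1a, Aph1b, Ephb4, Amph and Lrrk2, beside 7.47% of all genes. In HXB/BXH 36 (34.0%) did, beside 26.5%, and in the classic inbred strains 18 (17.0%) did, beside 23.2%.

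Of 16 tau kinases, phosphatase subunits and microtubule partners, 1 was called, Map1b, with an R2 of 0.517, and 14 were with batch as a term. Microglial risk genes were called in 10 of 12, led by Inpp5d (0.685) and Cd33 (0.624), and in 11 of 12 with batch as a term, beside the 7 of 7 microglia markers named above and 37.3% of all genes. Parkinson disease genes were called in 8 of 13, among them Lrrk2 (0.771), and in 13 of 13 with batch as a term. Of 14 genes of motor neuron disease and frontotemporal dementia 1 was called, Sqstm1 (0.51), and 9 were with batch as a term. Of 9 polyglutamine and prion disease genes 3 were called, led by Atxn1 (0.52) and Htt (0.502), and 7 were with batch as a term. With batch as a term 89 of the 106 (84.0%) were called, beside 70.3% of all genes.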

How the data were processed

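Values came from the deposited v7.1 tables of RefSeq genes and transcripts and from the v6 and v5 tables of Ensembl genes. All hold values on a log2 scale: for v5 the authors trimmed reads, removed ribosomal reads, aligned to strain versions of the rn6 genome, estimated counts with RSEM, removed 1 factor of unwanted variation and applied the regularized log of DESeq2. How v7.1 and v6 were made is not given in the sources used here. The labels' processing notes name cutadapt 1.9.1, Bowtie2 2.3.4.3 and 2.4.5, HISAT2 2.1.0 and 2.2.1, StringTie 1.3.5 and 2.2.1 and RSEM 1.3.1 and 1.3.3. Spike-ins (73 features) were left out. Strain, replicate number and batch came from the labels, and libraries of 1 strain with the same number were averaged to 1 animal. Nothing in the labels says more of separate animals, so p-values measure the spread between these samples.

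Strain effects were tested with the moderated F-test of limma 3.58.1 in R 4.3.3, progenitors with its contrasts, with Benjamini-Hochberg adjustment over all genes and a threshold of 5%. One fit over all animals shared the spread. Clusters were fitted with mclust 6.1.1. The tests were tried on simulated data first. For each gene the 3 genes with the highest r, for each list the 2 called genes with the highest R2, for transcripts the most abundant and the called one with the highest R2, and for strains the highest and lowest with at least 2 animals were named, by rule, except for a list gene that is not reported here. The 8 genes and the lists were chosen with earlier results of these data known. Depth is unknown, since no counts are held, and the number of animals sets the precision. Alternatives were batch as a term (animal as a block), a replicate block, 1 library per animal, centring on library medians, genes above the median level, leaving out replicates or doubted animals, and the older tables.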

Additional observations from a re-analysis of the deposited data

Results flagged for a closer look

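In the 6 libraries of SHR/OlaIpcv replicate 4, Picalm had 1 library far from the rest: the highest stood at 13.04 beside a median of 12.76, and its gap to the next took 0.698 of the whole range. This is above Dixon's critical value for 6 values. This check was run on the 8 genes in these 6 libraries, and by chance alone about 1 group in 20 is marked.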

How the results depend on the processing

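The strain calls rest on few animals per strain and, with panels and batches largely overlapping, on how batch is treated. Mapt and Bace1 kept their calls over all strains under every alternative run except leaving out replicates, which gave adjusted p-values of limma from 0.113 to 0.227 for Mapt and from 0.0476 to 0.345 for Bace1. Within HXB/BXH these were 0.105 to 0.17 for Mapt and 0.0305 to 0.158 for Bace1, and the v5 table gave 0.0808 and 0.0556. The cause of the other changes was not tested.

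With batch as a term the number of called genes became 14673 over all strains (7785 without), 2434 in FXLE/LEXF, 12945 in the classic inbred strains, 3450 between BN-Lx/Cub and SHR/OlaIpcv and 14492 transcripts. Restricted to genes above the median level, where fewer genes are tested, it was 3579 over all strains, 2477 in HXB/BXH, 474 in FXLE/LEXF, 1836 in the inbred strains, 469 between BN-Lx/Cub and SHR/OlaIpcv and 18 between F344/Stm and LE/Stm. The v5 table gave 3204 in HXB/BXH, 10265 in the inbred strains and 676 between F344/Stm and LE/Stm. The v6 table gave 476 in FXLE/LEXF and 408 between BN-Lx/Cub and SHR/OlaIpcv. For the latter pair 1 library per animal gave 548, and together with batch 1567. Leaving out replicates gave 3003 to 6065 genes over all strains, 2631 to 2962 in HXB/BXH, 514 to 1063 in FXLE/LEXF, 1774 to 6702 in the inbred strains, 202 to 1777 between BN-Lx/Cub and SHR/OlaIpcv (lowest without SHR/OlaIpcv replicate 4, highest without BN-Lx/Cub replicate 2), 132 to 164 between F344/Stm and LE/Stm and 2214 to 3523 transcripts. When the Bayesian information criterion had to improve by more than 6, 691 genes had more than 1 cluster in HXB/BXH and 433 in FXLE/LEXF.

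Replicate numbers were taken only as names of animals. The mean correlation of deviations of animals with the same number was 0.0103 in HXB/BXH, 0.0125 in FXLE/LEXF and 0.000245 in the inbred strains. Single pairs in HXB/BXH ran from -0.614 to 0.59, so this mean cannot show that the number carries nothing. In HXB/BXH replicate 1 was in batches 1, 2 or 3 and replicate 3 in batches 5, 6, 7 or 10. Leaving out a replicate thus also changed the batches there. The replicate block gave 7985 genes over all strains and 410 between BN-Lx/Cub and SHR/OlaIpcv, and -0.0156 for Mapt in that pair.

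Differences between progenitors that changed sign were uncalled. For BN-Lx/Cub minus SHR/OlaIpcv these were Apoe at 0.0711 with 1 library per animal, 0.143 in the v6 and 0.0711 in the v5 table, Mapt at -0.113 with batch and 1 library per animal, Clu at -0.0163 with batch, and in the v5 table Psen2 at 0.0903 and Bin1 at 0.123. Leaving out replicates gave -0.229 to 0.021 for App, -0.271 to 0.0804 for Apoe, -0.0802 to 0.242 for Mapt, -0.0759 to 0.143 for Clu and -0.301 to 0.0205 for Bin1. For F344/Stm minus LE/Stm, App was 0.0263 with centred libraries and 0.0126 in the v5 table, Psen2 was 0.0338 there, and leaving out replicates gave -0.0977 to 0.0123 for App and -0.0127 to 0.0297 for Bace1.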
